A study of Mus musculus with 4 samples.

Results

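Peritubular myoid cells are flat smooth muscle cells that form the wall of the seminiferous tubule, and their contraction moves fluid and released spermatozoa towards the rete testis. The 8 genes described here, *Acta2*, *Actg2*, *Myh11*, *Myl9*, *Tagln*, *Cnn1*, *Tpm2* and *Des*, encode the contractile apparatus of these cells. They were taken by name as smooth muscle contractile genes and not picked by their values, but earlier results of these data were known at that time. All probe sets that the array annotation pairs with 1 of them alone were used. These are 15 of the 45101 probe sets on the array and 8 of the 18193 genes that the annotation names singly.

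The arrays hold testis RNA of 2 *Ccnyl1*-/- mice and 2 WT mice, 1 array per mouse, all 2 months old and of the C57BL/6 strain in the labels. The *Ccnyl1*-/- mice carry the KO-first allele tm1a (EUCOMM) Wtsi, with a LacZ cassette, in every cell and no Cre, and they were bred from heterozygous parents. *Ccnyl1* encodes a cyclin Y-like protein, and the comparison asks whether its loss shifted transcript levels in the testis, here those of the contractile genes of the tubule wall. Per the labels, replicates are biological. As a check of the labels, the signal of *Ccnyl1* was 921 and 969 in *Ccnyl1*-/- testes and 2256 and 2425 in WT testes (log2 fold change -1.29, adjusted p = 0.00463 from limma). Where its probes lie relative to the cassette was not examined. All fold changes below are *Ccnyl1*-/- over WT.

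In smooth muscle, actin thin filaments slide along myosin thick filaments once the myosin regulatory light chain is phosphorylated. Tropomyosin, calponin and transgelin lie on the thin filament, and desmin filaments tie the contractile units to each other and to the membrane. The same genes are active in the smooth muscle of blood vessels and of the testis capsule, so in RNA of a whole testis they do not single out the tubule wall. *Actg2* is also transcribed in mouse haploid germ cells. In tissue RNA, fewer cells of a type and less RNA per cell cannot be told apart.

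The values are MAS 5.0 signals, array intensities on a linear scale. Probe sets differ in how brightly they read the same RNA, so levels are compared between mice for 1 probe set and never between probe sets. Differences were tested with limma on log2(signal + 16) over the 32438 probe sets whose mean signal over the 4 arrays was at least 32, and 11 of the 15 probe sets of the 8 genes were among them, with at least 1 for each gene.

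None of the 11 probe sets passed the test (adjusted p under 0.05 from limma, adjusted over all 32438), where 0.0123% of all probe sets did. None had an unadjusted p under 0.05 in limma, against 6.05% of all probe sets, and the methods' t-test after adjustment called 0 as well. Their log2 fold changes ran from -0.31 to 0.87, with 7 above and 4 below 0, a split that became 6 and 5 with quantile normalization and 5 and 6 with the arrays scaled to one median. The median was 0.01, and that of all tested probe sets was 0.02. On the brightest probe set of each gene, 5 genes lay above and 3 below 0, and apart from *Des* at 0.87 the other 7 lay between -0.19 and 0.23. With 2 mice against 2, an exact permutation test of a single gene cannot go below p = 0.333 (two-sided).

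**Figure D1:**
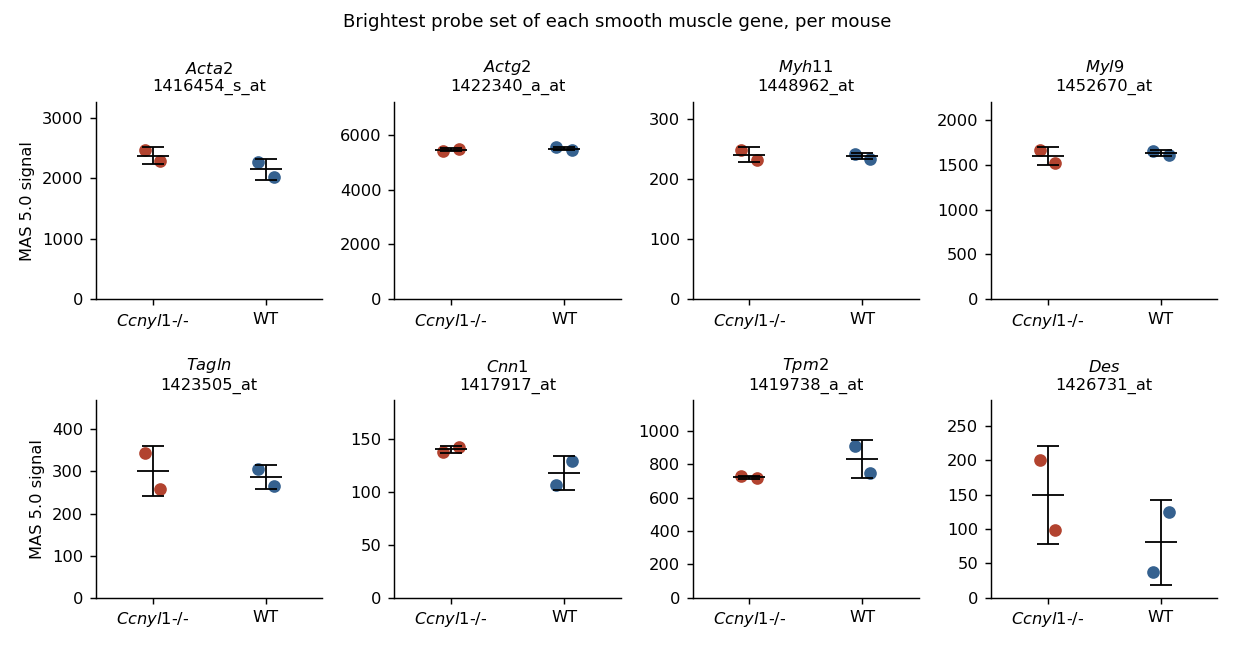
MAS 5.0 signal (linear axis from 0, a separate scale for each gene) of the brightest probe set of the 8 genes, with 1 point per mouse and the mean and SD of 2 mice. The mice of a genotype lie close together for *Actg2*, *Myh11* and *Myl9*, while *Des* ranges from 37.0 to 200.3.

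The thin filament is built from the smooth muscle actins. *Acta2* encodes the alpha actin by which myoid cells are usually recognised in sections. Its bright probe set, 1416454_s_at, read 2474 and 2283 in *Ccnyl1*-/- testes and 2277 and 2031 in WT testes. Both *Ccnyl1*-/- mice were above both WT mice, by a margin that is small beside the distance between the WT mice. The log2 fold change was 0.14 (standard error 0.09, adjusted p = 0.855 from limma), and the 95% interval of the fold ran from 0.96 to 1.27. The suffix _s_at marks a probe set whose probes can match several transcripts, so other actins can add to this signal.

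The 2 other probe sets of *Acta2* were dim and stayed under the minimum. Probe set 1444105_at read 31.5 and 41.1 in *Ccnyl1*-/- testes and 1.18 and 7.97 in WT testes. Probe set 1456658_at read 32.6 and 23.5 in *Ccnyl1*-/- testes and 11.2 and 16.4 in WT testes. On both, the *Ccnyl1*-/- mice were above the WT mice, at signals near or under the minimum of 32. When the minimum was dropped, they had log2 fold changes of 1.36 (adjusted p = 0.829 from limma) and 0.56 (adjusted p = 0.885), and neither passed. The unadjusted p from limma was 0.0069 for 1444105_at and 0.15 for 1456658_at. In that fit, 2634 of 45037 probe sets had an unadjusted p under 0.05.

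*Actg2* encodes the gamma actin of enteric smooth muscle. It read 5408 and 5488 in *Ccnyl1*-/- testes and 5537 and 5452 in WT testes on its only probe set, so that the genotypes overlapped within a range of a few percent. Its log2 fold change was -0.01 with a 95% interval from -0.14 to 0.12 (adjusted p = 0.987 from limma), or 0.91- to 1.08-fold. This is the narrowest interval of the 8 genes.

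The genes of the thick filament and of its light chain also gave small differences. *Myh11* encodes the smooth muscle myosin heavy chain, the most restricted marker of differentiated smooth muscle in the list. Probe set 1448962_at read 249.7 and 232 in *Ccnyl1*-/- testes and 242 and 235 in WT testes. The genotypes overlapped, and the log2 fold change was 0.01 (95% interval -0.35 to 0.37, adjusted p = 0.998 from limma). The other probe set of *Myh11*, 1418122_at, was dim, with 25.5 and 4.87 in *Ccnyl1*-/- testes and 41.8 and 6.74 in WT testes, and its mice of 1 genotype differed by 5.23-fold and 6.20-fold.

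*Myl9* encodes the regulatory light chain whose phosphorylation starts contraction. It read 1662 and 1523 in *Ccnyl1*-/- testes and 1652 and 1606 in WT testes. The *Ccnyl1*-/- mice lay on either side of both WT mice. The log2 fold change was -0.03, with a 95% interval of the fold from 0.85 to 1.12 (adjusted p = 0.970 from limma).

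*Acta2* and *Myl9* share a feature of their promoters that played no part in choosing them, the CArG box, which serum response factor (SRF) binds with its cofactor myocardin in smooth muscle genes. RefSeq promoters (GRCm38.p6, 250 bases before the start to 50 after) were at hand for 5 of the 8 genes, *Acta2*, *Myl9*, *Tpm2*, *Cnn1* and *Des*. Of these, 1 held a CArG box, *Myl9*, and 2, *Myl9* and *Acta2*, held one when 1 of the 6 bases of the A- and T-rich core was allowed to be G or C. Of all 32851 promoters in that table, 1.63% held the strict box and 9.98% held either form. The box reads alike on both strands. The sequences are shown because CArG boxes are known control elements of smooth muscle genes, each with 10 flanking bases and the box in capitals:
*Acta2*, 84 to 75 bases before the start, chr19:34255438-34255467, minus strand: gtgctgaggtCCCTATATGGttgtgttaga
*Acta2*, 34 to 25 bases before the start, chr19:34255388-34255417, minus strand: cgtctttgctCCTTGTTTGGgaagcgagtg
*Myl9*, 161 to 152 bases before the start, chr2:156775293-156775322, plus strand: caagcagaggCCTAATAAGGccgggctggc
*Myl9*, 99 to 90 bases before the start, chr2:156775355-156775384, plus strand: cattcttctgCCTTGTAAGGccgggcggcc
Both boxes of *Acta2* and the second of *Myl9* carry the single G or C in the core. Distances are from the start that the table gives; for *Acta2* a TATATA run begins 9 bases after it. TATATA (read on the gene's strand) was in 5.67% of all promoters. That a box was not matched in the other windows says only that these letters are absent there. Neither gene with a matched box differed between the genotypes past the test, and their log2 fold changes had opposite signs (0.14 and -0.03).

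Transcripts of the proteins that lie on the thin filament, from *Tagln*, *Cnn1* and *Tpm2*, had log2 fold changes from -0.31 to 0.23. *Tagln* encodes transgelin, an actin-binding protein of smooth muscle. It read 343 and 258 in *Ccnyl1*-/- testes and 307 and 266 in WT testes, and the *Ccnyl1*-/- mice again enclosed both WT mice. The log2 fold change was 0.06 (95% interval -0.35 to 0.47, adjusted p = 0.975 from limma).

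*Cnn1* encodes calponin, which holds back the myosin ATPase. It read 138 and 142 in *Ccnyl1*-/- testes and 107 and 129 in WT testes. Both *Ccnyl1*-/- mice were above both WT mice, while the WT mice were 1.21-fold apart. The log2 fold change was 0.23 (95% interval of the fold 0.84 to 1.64, adjusted p = 0.895 from limma).

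*Tpm2* encodes beta-tropomyosin and is the only gene of the 8 with 4 probe sets. The brightest, 1419738_a_at, read 729 and 715 in *Ccnyl1*-/- testes and 910.5 and 749 in WT testes. Both *Ccnyl1*-/- mice were below both WT mice, and the WT mice were 1.22-fold apart. Its log2 fold change was -0.19 (95% interval -0.47 to 0.09, adjusted p = 0.861 from limma). Probe set 1425028_a_at read 279 and 331 in *Ccnyl1*-/- testes and 328 and 278 in WT testes, so that the genotypes covered nearly the same range, and its log2 fold change was 0.01. Probe set 1419739_at read 44.0 and 74.4 in *Ccnyl1*-/- testes and 75.6 and 74.6 in WT testes, a log2 fold change of -0.31 that rests on 1 mouse: without *Ccnyl1*-/- replicate 1 it was -0.01. Probe set 1449577_x_at, just under the minimum with a mean of 29.1, read 38.3 and 22.2 in *Ccnyl1*-/- testes and 25.4 and 30.4 in WT testes. The suffix _a_at marks probes shared by transcripts of 1 gene, and *Tpm2* has several splice forms, so the probe sets need not read the same transcripts.

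*Des*, which encodes the intermediate filament protein desmin, had the largest difference and the widest spread among the 11 tested probe sets. Its brighter probe set, 1426731_at, read 200.3 and 99.0 in *Ccnyl1*-/- testes and 37.0 and 124 in WT testes. The highest mouse was *Ccnyl1*-/- and the lowest WT, but the WT mouse at 124 was above the *Ccnyl1*-/- mouse at 99.0, so that the genotypes overlapped. The mean signals were 149.7 ± 71.6 in *Ccnyl1*-/- testes and 80.7 ± 61.8 in WT testes (SD, n = 2 each), and the log2 fold change was 0.87 (standard error 0.47, 95% interval -0.20 to 1.94, adjusted p = 0.840 from limma). The mice of 1 genotype were 2.02-fold apart in *Ccnyl1*-/- and 3.36-fold apart in WT testes.

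The second probe set of *Des*, 1426732_at, lay just above the minimum with a mean of 40.6. It read 41.2 and 47.9 in *Ccnyl1*-/- testes and 37.5 and 35.7 in WT testes. Here the genotypes did not overlap, but the mouse that was highest on the brighter probe set was not the highest on this one. The log2 fold change was 0.20 (95% interval of the fold 0.63 to 2.09, adjusted p = 0.955 from limma).

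**Figure D2:**
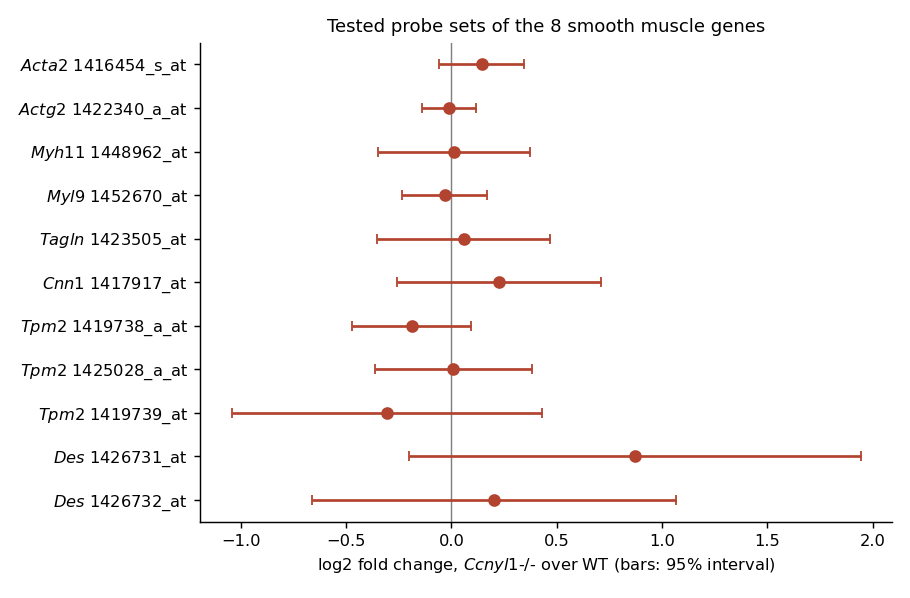
Log2 fold change of *Ccnyl1*-/- over WT (horizontal axis) for the 11 tested probe sets of the 8 genes, with bars for the 95% interval of limma. Every interval includes 0, the narrowest being that of *Actg2* (-0.14 to 0.12) and the widest that of *Des* 1426731_at (-0.20 to 1.94).

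The 95% interval of 8 of the 11 probe sets, and of 7 of the 8 genes on their brightest probe set, lay within 2-fold either way. For 6 genes it lay within 1.5-fold, the others being *Cnn1* and *Des*. Of the 11, 3 had both *Ccnyl1*-/- mice above both WT mice (*Acta2*, *Cnn1* and the dimmer probe set of *Des*), which held for 20.6% of all tested probe sets. Both *Ccnyl1*-/- mice were below both WT mice at 2 probe sets, both of *Tpm2*, against 15.3% of all tested probe sets. Among all 15 probe sets, 5 had both *Ccnyl1*-/- mice above both WT mice, which adds the 2 dim ones of *Acta2*.

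At 10 of the 11 probe sets, the 2 mice of at least 1 genotype differed by more than the genotypes did. The exception was *Des* 1426732_at. The same held for 76.5% of all tested probe sets. The comparison sets the larger of 2 differences between single mice against a difference between means of 2 mice. Its form favours the spread between mice, so the count does not set these genes apart. The SD between mice of a genotype on the log2 scale was 0.84 for *Des* 1426731_at, where the fit gave 0.26 as typical of probe sets of that brightness. Of all tested probe sets, 1.14% exceeded *Des* in this ratio. The SD was below the typical value at 7 of the other probe sets, among them *Actg2* (0.02 against 0.06) and *Myh11* (0.05 against 0.18), and above it for *Acta2*, *Tagln* and 1 probe set of *Tpm2*.

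**Figure D3:**
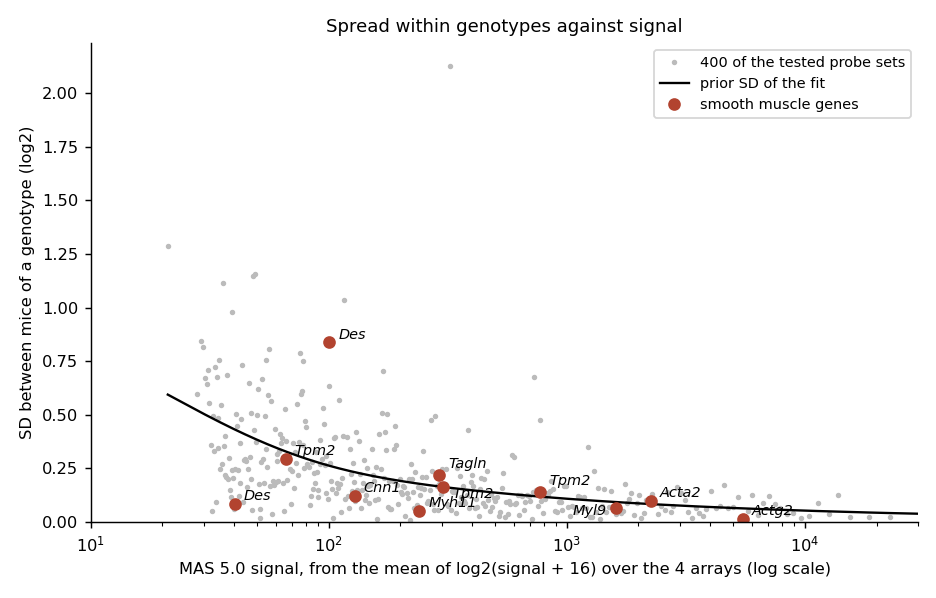
SD of log2(signal + 16) between mice of a genotype (vertical axis) against signal (log scale) for the 11 probe sets of the 8 genes, beside 400 of all tested probe sets spread over the range of signals, with the fitted typical SD as a line. *Des* 1426731_at stands at 0.84, above the line at 0.26, and the others lie near or under the line.

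Leaving out 1 mouse at a time moved the members without making a call. Such a fit leaves 1 mouse of a genotype, which is assumed to vary like the 2 of the other. *Des* 1426731_at had log2 fold changes of 0.42 without *Ccnyl1*-/- replicate 1, 1.33 without *Ccnyl1*-/- replicate 2, 0.17 without WT replicate 1 and 1.57 without WT replicate 2. Its size therefore rests on the WT mouse at 37.0 and the *Ccnyl1*-/- mouse at 200.3, and the lowest adjusted p was 0.269 from limma, without WT replicate 2. *Acta2* (0.06 to 0.22), *Cnn1* (0.11 to 0.35) and the brightest probe set of *Tpm2* (-0.33 to -0.05) kept their direction. *Myh11* (-0.04 to 0.06), *Myl9* (-0.10 to 0.03) and *Tagln* (-0.14 to 0.25) did not.

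**Figure D4:**
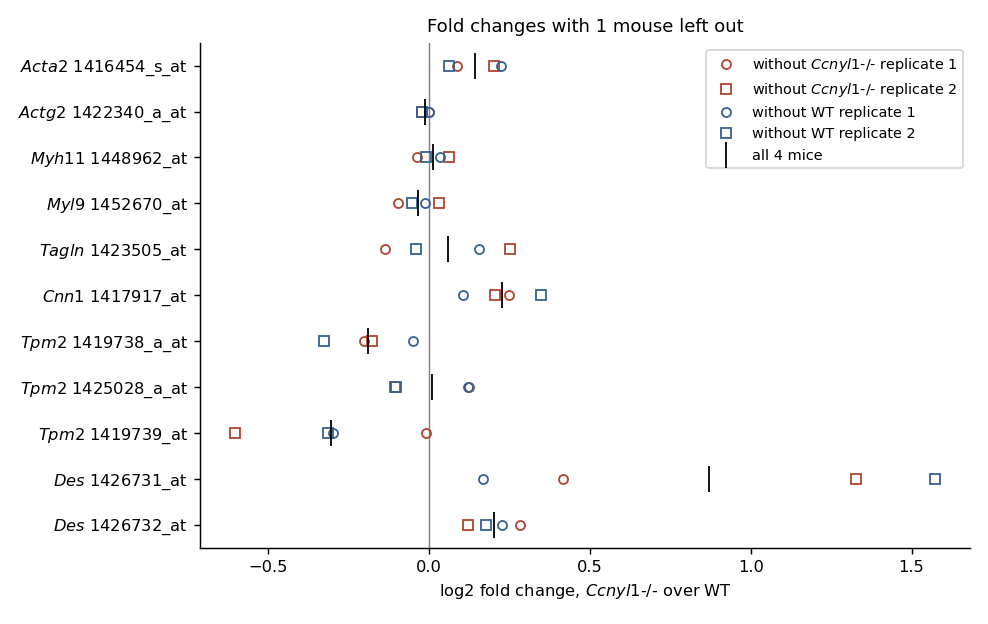
Log2 fold change of *Ccnyl1*-/- over WT (horizontal axis) of the 11 probe sets with all 4 mice (black ticks) and with each mouse left out in turn (open symbols). *Des* 1426731_at moves from 0.17 to 1.57, while *Actg2* stays between -0.02 and 0.00.

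The genes nearest to *Des* 1426731_at in their pattern over the 4 arrays, by the root mean square distance of centred log2(signal + 16) among the brightest probe sets of 15260 genes, were *Hoxb9* (0.11), *Defb6* (0.12), *Tacr3* (0.17), *Slc28a3* (0.17) and *Stc1* (0.18), where the median distance was 0.75. All 5 were dim. *Hoxb9*, a homeobox gene of the posterior body axis, read 67.8 and 34.3 in *Ccnyl1*-/- testes and 6.43 and 34.7 in WT testes. *Defb6*, a beta-defensin gene, read 71.0 and 28.1 in *Ccnyl1*-/- testes and 6.98 and 32.9 in WT testes. The 8 genes themselves were left out of the genes compared.

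Genes around the contractile apparatus were read from lists chosen by function, with 1 probe set per gene, the brightest. Of the 188 entries tested in 13 lists, none passed the test in limma or with the methods' t-test after adjustment, and 12 had an unadjusted p under 0.05 in limma, where 6.05% of all tested probe sets did. Of 17 genes that control contraction, 10 were above and 7 below 0 (median 0.12). *Mylk*, which encodes the kinase of the light chain, read 1437 and 1297 in *Ccnyl1*-/- testes and 1282 and 1224 in WT testes, with both *Ccnyl1*-/- mice above both WT mice and a log2 fold change of 0.12, but its other probe sets ran from -0.08 to 0.41. The farthest were *Mylk3* (0.54) and *Smtn* (0.46) on one side and *Ppp1r14a*, an inhibitor of the myosin phosphatase (-0.44), and *Prkg1*, which encodes the cGMP-dependent kinase of relaxation (-0.29), on the other. The genotypes overlapped for the first 3 of these, and a second probe set of *Prkg1* had 0.58, the opposite sign.

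Of 29 genes of the smooth muscle scaffold, 16 were above and 13 below 0 (median 0.05). *Itga1*, which encodes a collagen-binding integrin chain, read 608 and 690 in *Ccnyl1*-/- testes and 972 and 792 in WT testes on its brightest probe set. Both *Ccnyl1*-/- mice were below both WT mice, and the log2 fold change was -0.43 (adjusted p = 0.741 from limma), while its other probe set had 0.10. *Cryab*, a small heat shock protein gene, had the highest value, 0.52, followed by *Mustn1* (0.47), and *Pgm5* the lowest, -0.52.

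Of 13 genes of SRF, its cofactors and its inputs, 5 were above and 8 below 0 (median -0.01). *Srf* itself read 516 and 420 in *Ccnyl1*-/- testes and 499.7 and 425 in WT testes, so that its genotypes overlapped, and *Mrtfa*, which encodes a cofactor of SRF, had a log2 fold change of 0.08. *Elk1* (0.46) was the highest, and *Foxo4* (-0.39) and *Tgfb1* (-0.34) were the lowest. *Myocd*, the gene of myocardin, was under the minimum, with 47.7 and 36.6 in *Ccnyl1*-/- testes and 36.6 and 4.001 in WT testes.

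Paralogs that are used outside muscle, among them the actins of the cytoskeleton and of germ cells, had 7 of 15 above and 8 below 0 (median -0.01). *Tagln2*, the transgelin of other cells, had 0.42 on its brightest probe set and 0.02 on the other, and *Myh9*, a non-muscle myosin heavy chain gene, 0.23, while *Myl12a*, a light chain gene, was the lowest at -0.13. *Actl7b*, an actin-like gene of haploid germ cells, was bright on every array, with 12997 and 12155 in *Ccnyl1*-/- testes and 14241 and 12709 in WT testes. Among striated muscle genes (10 of 16 above 0, median 0.06), *Acta1*, the skeletal muscle actin gene, read 62.2 and 47.3 in *Ccnyl1*-/- testes and 102 and 94.5 in WT testes. The genotypes did not overlap there (log2 fold change -0.70, adjusted p = 0.810 from limma). *Mb*, the myoglobin gene, was the highest at 1.12 and read 54.4 and 62.3 in *Ccnyl1*-/- testes and 38.7 and 5.47 in WT testes, while *Actc1*, the cardiac actin gene, had -0.38. *Ryr1*, the calcium channel gene of skeletal muscle, read 272 and 276 in *Ccnyl1*-/- testes and 310 and 95 in WT testes, so that the genotypes overlapped, and had 0.61. It was the 1 listed gene to pass with a mouse left out, at 1.38 (adjusted p = 0.0439 from limma) without WT replicate 1, the mouse at 310, which leaves the WT mouse at 95 alone.

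Of 18 other genes listed for peritubular myoid cells, 10 were above and 8 below 0 (median 0.03). The list is not exclusive to these cells, and its gene *Wt1* is also counted among the Sertoli cell genes. *Ptch1*, which encodes the receptor of the desert hedgehog signal from Sertoli cells, read 436 and 429 in *Ccnyl1*-/- testes and 495 and 383 in WT testes. *Lif* (0.50) and *Gli2* (0.50) were the highest, and *Pdgfra*, a platelet-derived growth factor receptor gene of the interstitium, the lowest (-0.41), followed by *Pdgfrb* (-0.19). Of 26 matrix genes, 14 were above and 12 below 0 (median 0.05). *Col3a1*, a fibrillar collagen gene, read 579 and 511 in *Ccnyl1*-/- testes and 307 and 362 in WT testes. The genotypes did not overlap on that probe set (log2 fold change 0.68, adjusted p = 0.645 from limma), but the other probe set of *Col3a1* had -0.07. *Eln*, the elastin gene, had 0.67, *Fn1*, the fibronectin gene, -0.34 and *Lum* -0.32, but the other probe sets of *Eln* and *Fn1* had the opposite sign (-0.03 and 0.40). Of 12 receptor and ligand genes that act on contraction in either direction, 6 were above and 6 below 0 (median 0.04), with *Ptgfr* at 0.49, *Edn1*, the endothelin-1 gene, at 0.47, *Npr1* at -0.35 and *P2rx1* at -0.60.

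**Figure D5:**
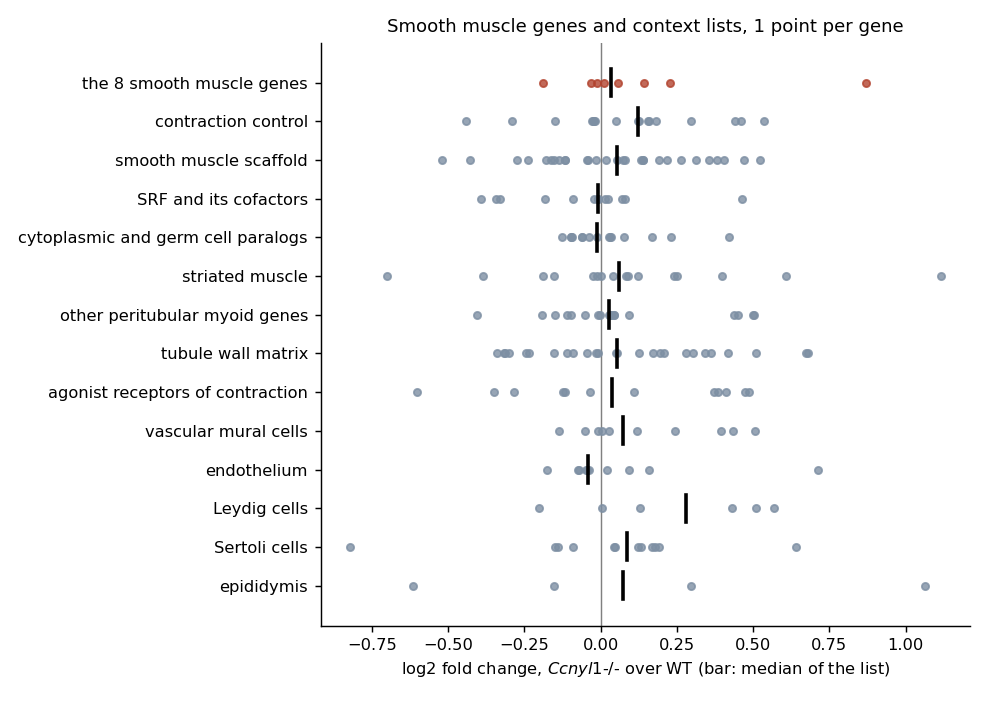
Log2 fold change of *Ccnyl1*-/- over WT (horizontal axis) of the 8 smooth muscle genes and of 13 lists of other genes, 1 point per gene on its brightest probe set, with a bar at the median of each list. Medians of the lists lie between -0.04 for endothelium and 0.28 for Leydig cells, and that of the 8 genes is 0.03.

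Other cells that hold or border smooth muscle were read in the same way, and their part in the values above was not tested. Vascular mural cell genes had 7 of 10 above and 3 below 0 (median 0.07). The summed signal of the 11 listed genes with a probe set was 1057 and 1083 in *Ccnyl1*-/- testes and 951 and 934 in WT testes. Both *Ccnyl1*-/- mice were thus above both WT mice, which held for 20.6% of single tested probe sets. Within this list, *Mcam*, a cell adhesion gene of mural cells and endothelium, read 191 and 217 in *Ccnyl1*-/- testes and 147 and 146 in WT testes (log2 fold change 0.43, adjusted p = 0.815 from limma). *Heyl* had 0.51, *Rgs5*, a marker of pericytes, 0.12, *Rgs4* -0.05 and *Vtn* -0.14. Endothelial genes had 4 of 10 above and 6 below 0 (median -0.04), with sums of 1198 and 1334 in *Ccnyl1*-/- testes and 1263 and 1305 in WT testes, and *Pecam1* (0.71) and *Esam* (0.16) stood at one end of this list and *Kdr* (-0.18) and *Cldn5* (-0.07) at the other.

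Leydig cell genes had 5 of 6 above and 1 below 0 (median 0.28). Their summed signal was 9680 and 5589 in *Ccnyl1*-/- testes and 7559 and 4283 in WT testes, which overlaps widely, since *Cyp17a1* alone read 6164 and 2731 in *Ccnyl1*-/- testes and 4117 and 2009 in WT testes. For this sum and for *Cyp17a1*, replicate 1 was above replicate 2 in both genotypes. Within each replicate number the *Ccnyl1*-/- mouse was above the WT mouse. The labels do not say whether the numbers pair the mice. *Star*, which encodes the cholesterol carrier of steroid synthesis, had 0.57, *Nr5a1* 0.00 and *Hsd3b1* -0.20. Sertoli cell genes had 8 of 12 above and 4 below 0 (median 0.09), with sums of 33328 and 31463 in *Ccnyl1*-/- testes and 34631 and 33996 in WT testes. By these sums both *Ccnyl1*-/- mice were below both WT mice, the opposite direction to the mural cell sums. This held for 15.3% of single tested probe sets. The brightest genes of a list weigh most in its sum. The ends of that list were *Fshr*, the gene of the receptor of follicle-stimulating hormone (0.64), and *Sox9* (0.19), against *Amh* (-0.82) and *Ctsl* (-0.15). Of 9 epididymal genes with a probe set, 5 were under the minimum. *Lcn8*, a lipocalin gene of the epididymis, read 58.2 and 54.1 in *Ccnyl1*-/- testes and 12.3 and 26.2 in WT testes, and *Aqp9*, a bright gene of that list that is also active in the testis, had 0.30 (adjusted p = 0.729 from limma), against -0.15 for *Rnase10* and -0.61 for *Defb2*. Among the genes named here from the lists, another probe set also had the opposite sign for *Tgfb1* (0.18), *Myh9* (-0.12), *Heyl* (-0.04), *Vtn* (0.03), *Ctsl* (0.28) and *Rgs5* (-0.18). None of the listed genes with a probe set was at 0 on any array, but some read close to it, such as *Tie1* with 1.26 in WT replicate 1. A signal above 0 does not show that a gene was detected.

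The arrays themselves were similar, but the medians given below were higher on both *Ccnyl1*-/- arrays. Scaling the arrays to one median moved the median log2 fold change of the 11 probe sets from 0.01 to -0.039. Log2 signals correlated between 0.977 and 0.980 over the 6 pairs of arrays, across probe sets, which are not independent replicates. Over the tested probe sets, the median was 209 and 203 in *Ccnyl1*-/- testes and 199 and 197 in WT testes, and the ratio of the 3' to the 5' signal of *Actb*, a measure of RNA integrity, was 1.83 and 1.74 in *Ccnyl1*-/- testes and 1.87 and 1.78 in WT testes.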

How the data were processed

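The values deposited by the authors are MAS 5.0 signals, intensities on a linear scale, made by them on each array alone with default settings and 1 scaling factor per array. The methods name a trimmed mean of 100, while the trimmed mean (2% off each end) is 500.0 on every array here, so the offset and the minimum act at a lower brightness than that target implies. Probe sets were named through the platform annotation, and 64 control probe sets were left out. With R 4.3.3 and limma 3.58.1 (lmFit, eBayes with a trend on mean log2 signal), log2(signal + 16) was compared by genotype over probe sets with a mean signal of at least 32, with Benjamini-Hochberg adjustment over all of them, threshold 0.05. The number of arrays limits the precision. The pipeline was tested on simulated data. The members, the 13 lists and the tests were chosen with earlier results of these data known. Named were all members, *Ccnyl1*, the 2 genes at each end of each list and the 5 genes nearest *Des*. *Mylk*, *Srf*, *Myocd*, *Ptch1* and *Rgs5* were named after their values were seen. Promoters came from RefSeq (GRCm38.p6). Listed symbols without an own match were looked up through RefSeq synonyms. Alternatives were another offset, minimum, normalization, variance estimate and test, the replicate number as a block, a subset of probe sets and each mouse left out.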

Additional observations from a re-analysis of the deposited data

How the results depend on the processing

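No probe set of the 8 genes passed in any of the 15 alternatives. The count of calls over all probe sets, 4 in the main analysis, was 0 without the variance trend and 0 with the methods' t-test, and ran from 6 to 55 with 1 mouse left out. With the replicate number as a block it was 14. Nothing in the labels says that a number marks a shared litter or day, and the deviations of same-numbered mice correlated at 0.01 over 32438 probe sets. A correlation over all probe sets cannot show whether some of them share such a shift. The median of the 11 probe sets was -0.039 with arrays scaled to one median, and -0.023 to 0.11 with 1 mouse left out, against a spread of 0.03 between mice of a genotype. When suffixed probe sets (_x_at, _s_at, _a_at) were dropped, 7 of the 11 were left, none of *Acta2* or *Actg2*, and their median was 0.057. Signs turned for *Actg2* (0.0043 with quantile normalization), *Myh11* 1448962_at (-0.038 with quantile normalization, -0.039 with one median, -0.037 to 0.062 with 1 mouse left out), *Tpm2* 1425028_a_at (-0.030, -0.043, and -0.11 to 0.13, in the same order), *Myl9* (-0.096 to 0.029 with 1 mouse left out) and *Tagln* (-0.14 to 0.25). The cause was not tested. Between 0 and 1 of the listed genes passed with 1 mouse left out. The dim probe sets, with signals under about 40, limit what can be read from *Acta2* 1444105_at, 1456658_at and *Myh11* 1418122_at.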
